A study of Drosophila melanogaster with 8 samples.

Results

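CG31300 and CG10553 belong to a tandem array of kinase-like genes on the right arm of chromosome 3 of Drosophila melanogaster. The genes described here are those 2 and 6 named relatives from the same array, CG10550, CG10559, CG10560, CG10562, CG10513 and CG10514, which makes 8 of the 17676 genes in the count table. They were taken by name, from a list selected on read counts of these same knockdown and control libraries. Their values in the comparisons with control are therefore given as a description. Where the calls of the test over all genes are counted for them, the counts describe the list and support nothing. All 8 had enough reads to pass the filter on low counts.

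The genes code for proteins of the ecdysteroid kinase-like family, which shares the fold of choline kinases and aminoglycoside phosphotransferases. In the silkworm a member of the family phosphorylates ecdysteroids, the insect moulting hormones, and so turns active hormone into a stored conjugate. In Drosophila the family has expanded into many copies, most of unknown substrate, and its members have been discussed both as hormone kinases and as enzymes that phosphorylate foreign compounds. RefSeq gives each member a subfamily name that starts with Dro, and no individual substrate is known with confidence for any of the 8.

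RNA was sequenced from whole adult heads. The knockdown RNA1 had 3 libraries with genotype entry KD1, the knockdown RNA2 had 2 libraries with entries KD2 (replicate 1) and KD3 (replicate 2), and the control had 3 libraries with the entry WT, titled as the control for RNA1 and RNA2 alike. The labels describe the knockdown of FBXO11, the substrate-recognition subunit of a ubiquitin ligase, as neuronal, but give no driver line, age, sex or strain, and they put all 8 libraries in batch 1. Nothing states that replicates came from separate pools of flies, so p-values measure only the spread between these libraries, which may be technical. In RNA2 that spread may also hold a difference between the entries KD2 and KD3. Control and knockdown flies share no genotype entry, so the knockdown and any difference in strain background cannot be told apart.

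The libraries held 32434805 to 41589222 counted reads. FBXO11 had 39.7, 42.5 and 37.5 CPM (a gene's reads relative to the scaled total of its library) in RNA1 and 44.8 and 52.7 CPM in RNA2, against 108, 102.9 and 97.4 CPM in control, so the labels and the targeted gene matched in every library. Summed over 7 photoreceptor genes such as ninaE and norpA, the libraries held 58540 to 59600 CPM in RNA1, 58660 and 73190 CPM in RNA2, and 58080 to 65610 CPM in control. Sums over 8 neuronal genes such as elav and nSyb were 5222 to 6456 CPM in RNA1, 5674 and 6120 CPM in RNA2, and 6056 to 6729 CPM in control.

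The array was an uninterrupted run of 26 protein-coding genes of the family, at BDGP6 3R:25270209-25331203, a stretch of 60995 bp with 11 genes on the plus strand and 15 on the minus strand. No gene of another family was annotated inside it. The 8 genes lay within 46968 bp of it, in 3 stretches. CG10513 (FBgn0039311, subfamily name Dro2-0, 3R:25275790-25277212), CG10514 (FBgn0039312, Dro3-0, 3R:25278427-25279846) and CG31300 (FBgn0051300, Dro5-1, 3R:25283620-25285224) stood near its start. CG10550 (FBgn0039321, Dro13-1, 3R:25306407-25308391) stood further along, among other copies.

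Towards the end of the array, CG10559 (FBgn0039323, Dro16-0, 3R:25314494-25316116), CG10553 (FBgn0039324, Dro17-1, 3R:25316461-25318111), CG10560 (FBgn0039325, Dro17-3, 3R:25318550-25320101) and CG10562 (FBgn0039326, Dro18-1, 3R:25321053-25322757) followed each other directly, with gaps of 344, 438 and 951 bp. CG31300 was on the plus strand and the other 7 were on the minus strand. Each gene held 2 to 4 exons and a coding length of 1215 to 1275 bp, and none overlapped another annotated gene. CG10550 had 3 annotated transcripts and each of the others had 1. How the authors' counting treated reads that map to several copies is not given in the sources used here, so reads of near-identical stretches may be split between copies.

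CG31300 had 5.83, 5.62 and 4.86 CPM in RNA1 and 4.71 and 5.58 CPM in RNA2, against 22.6, 23.3 and 26.3 CPM in control. The 5 knockdown libraries lay close together and well below the lowest control. The log2 fold change was -2.14 ± 0.12 (SE) in RNA1 and -2.22 ± 0.14 in RNA2, so 22.6% of the control level was left in RNA1 and 21.4% in RNA2. In raw reads this was 160 to 219 per library in RNA1 and 169 and 189 in RNA2, against 865 to 1000 in control.

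CG10553 had 7.80, 8.67 and 8.66 CPM in RNA1 and 5.32 and 8.79 CPM in RNA2, against 36.7, 43.1 and 42.7 CPM in control. Again no knockdown library came near a control, and RNA2 replicate 1, the KD2 library, was the lowest of the 8. The log2 fold change was -2.29 ± 0.16 in RNA1 and -2.53 ± 0.19 in RNA2, with 20.5% of the control level left in RNA1 and 17.3% in RNA2. CG31300 and CG10553, which lie on opposite strands with 31236 bp between them, were the 2 of the 8 genes with a log2 fold change under -2 in both knockdowns, a cut that 0.235% of all 11081 genes tested passed.

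CG10560, the copy next to CG10553 and of the same Dro17 subfamily, had 17.0, 18.9 and 22.1 CPM in RNA1 and 10.6 and 18.9 CPM in RNA2, against 43.6, 58.9 and 48.0 CPM in control. All knockdown libraries were below all controls. Its log2 fold change was -1.38 ± 0.22 in RNA1 and -1.77 ± 0.26 in RNA2, or 38.5% and 29.4% of control.

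CG10562, the next copy along, had 25.6, 17.9 and 23.4 CPM in RNA1 and 13.1 and 20.2 CPM in RNA2, against 31.0, 45.8 and 31.0 CPM in control. The groups did not overlap, but control replicate 2 stood apart from the other controls, and this gene had the widest spread within groups of the 8. Its log2 fold change was -0.69 ± 0.23 in RNA1 and -1.11 ± 0.26 in RNA2, and without control replicate 2 it was -0.48 in RNA1 and -0.89 in RNA2.

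CG10559, on the other side of CG10553, was the least expressed of the 8 genes. It had 3.09, 2.78 and 2.92 CPM in RNA1 and 2.23 and 3.69 CPM in RNA2, against 2.42, 2.67 and 3.41 CPM in control. The groups overlapped fully, and the log2 fold change was 0.05 ± 0.22 in RNA1 and 0.06 ± 0.25 in RNA2. Of 4 adjacent copies, then, 3 were lower in every knockdown library and the first of them was not.

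CG10550, the most abundant of the 8, had 121.5, 102.1 and 113.4 CPM in RNA1 and 101.7 and 126.7 CPM in RNA2, against 161.6, 181.2 and 176.5 CPM in control. The groups did not overlap, with a smaller distance than in CG31300 and CG10553. Its log2 fold change was -0.62 ± 0.10 in RNA1 and -0.60 ± 0.11 in RNA2, or 64.9% and 66.0% of control.

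CG10513 had 24.9, 24.0 and 21.7 CPM in RNA1 and 29.1 and 26.4 CPM in RNA2, against 40.6, 46.1 and 47.4 CPM in control. The groups did not overlap, and the log2 fold change was -0.93 ± 0.09 in RNA1 and -0.69 ± 0.10 in RNA2. CG10514, which begins 1214 bp further along on the same strand, had 12.1, 13.7 and 11.6 CPM in RNA1 and 15.2 and 13.5 CPM in RNA2, against 12.5, 13.0 and 14.4 CPM in control. Its groups overlapped, with a log2 fold change of -0.10 ± 0.10 in RNA1 and 0.11 ± 0.12 in RNA2, so this pair of neighbouring copies differed as CG10559 and CG10553 did.

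**Figure D1:**
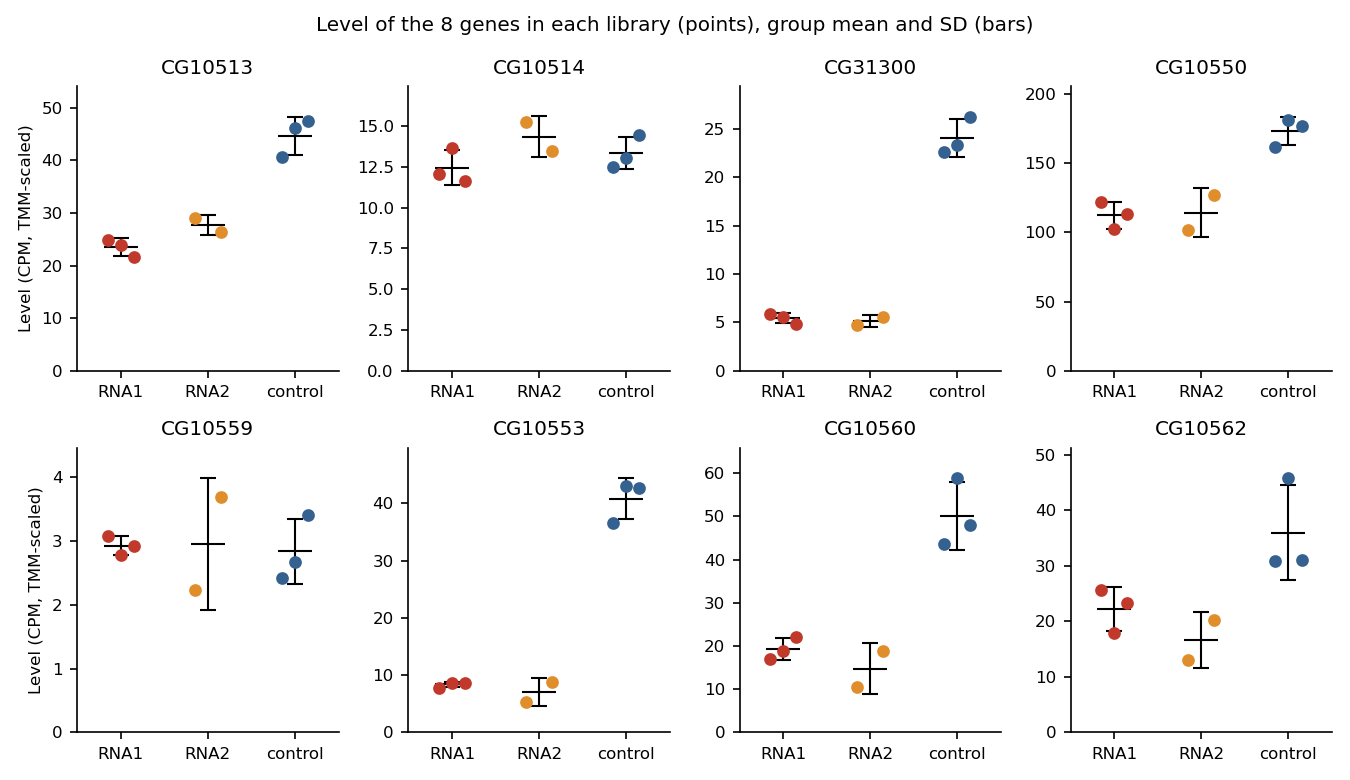
CPM of the 8 genes in each library (points), with the group mean and SD (bars), for RNA1, RNA2 and control, each panel on its own axis from 0. The knockdown points of CG31300 and CG10553 lie far below the controls, with group levels at 17.3 to 22.6% of control, while those of CG10559 and CG10514 overlap the controls and reach beyond them on both sides.

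By count, 6 of the 8 genes, all but CG10559 and CG10514, were lower in all 5 knockdown libraries than in every control, as were 10.7% of all genes tested. With edgeR's quasi-likelihood test and a Benjamini-Hochberg FDR under 0.05 over all genes, 5 of 8 counted as lower in RNA1, where 5.25% of all genes did, and 5 of 8 in RNA2, where 2.02% did. They were the same 5 genes, CG31300, CG10553, CG10560, CG10550 and CG10513, and 1.72% of all genes were lower in both comparisons. CG10550 no longer counted in RNA2 without control replicate 2, control replicate 3 or RNA2 replicate 1. Since the genes were named with their counts known and the comparisons share the controls, nothing is read from these shares. The median log2 fold change of the 8 was -0.81 in RNA1 and -0.90 in RNA2, beside 0.01 for all genes in either comparison.

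In RNA2 against RNA1, edgeR called 0 of the 8 genes and DESeq2 and limma-voom also called 0, while 1 had an unadjusted p under 0.05, as had 7.66% of all genes. Of all genes 0.28% were called in this comparison. The differences ran from -0.42 for CG10562 and -0.39 for CG10560 to 0.24 for CG10513 on the log2 scale. Single libraries set much of this. Without RNA2 replicate 1 the difference was -0.14 for CG10562 and -0.03 for CG10560, and without RNA2 replicate 2 it was -0.77 and -0.87. CG10553 had -0.25 with both RNA2 libraries and 0.07 without replicate 1.

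As heads were measured whole, fewer cells that express these genes and less RNA per cell cannot be told apart. Summed over the 8 genes, the libraries held 206.6 ± 12.2 CPM in RNA1 (SD, n = 3) and 202.8 ± 29.5 CPM in RNA2 (n = 2), against 384.9 ± 31.9 CPM in control (n = 3). Knockdown heads thus held 53.7% and 52.7% of the control sum. The other 18 genes of the array together held 144.5 ± 12.6 CPM in RNA1 and 138.9 ± 7.08 CPM in RNA2, against 144.1 ± 5.39 CPM in control. Of these, CG11889 and CG11891 share the annotated span 3R:25270209-25273267 on the same strand and had 0 reads in every library. How reads of overlapping genes were counted is not given, so their level cannot be judged. The 8 genes made up 57.8 to 60.4% of the array's reads in RNA1 and 57.6 and 60.9% in RNA2, against 71.6 to 74.3% in control. The share of CG10550 alone was 30.8 to 34.5% over all libraries. Its level was 64.9% of control in RNA1 and 66.0% in RNA2. The array's sum, which includes it, was 66.4% and 64.6% of control.

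**Figure D2:**
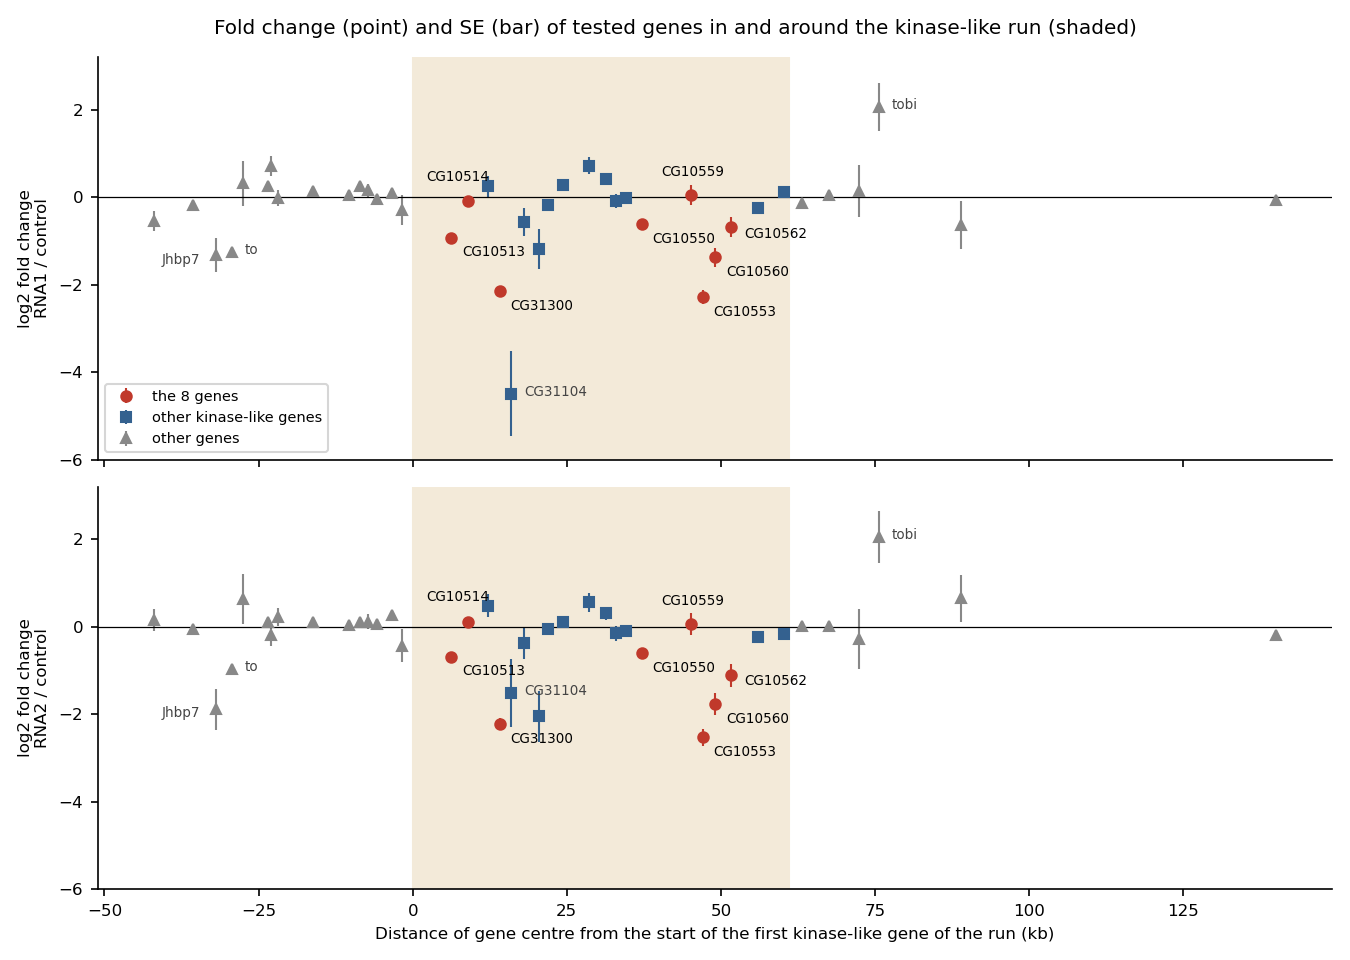
Log2 fold change (point) and SE (bar) of each tested gene against the distance of its centre from the start of the array in kb, for RNA1 over control above and RNA2 over control below, with the array (called the run in the picture) shaded. Low points include CG31300, CG10513, CG10550 and the adjacent CG10553, CG10560 and CG10562. Most other copies lie near 0, while CG31288 lies above it and CG31104 and CG11893 lie low with wide bars. Most genes outside the array lie near 0.

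The gene that flanks CG31300 upstream, CG11892, ends 382 bp before it. It had 5.16, 8.2 and 4.86 CPM in RNA1 and 8.86 and 5.43 CPM in RNA2, against 4.85, 4.89 and 5.67 CPM in control, so its groups overlapped. Downstream, CG31104 begins 248 bp after CG31300 on the same strand and carries the same Dro5 subfamily name. It had 0, 1 and 1 reads in RNA1 and 5 and 7 reads in RNA2, against 12, 9 and 37 reads in control. Pooled per total count, control held 25.6 times the reads of RNA1, with a 95% interval of 6.76 to 216 for counting error only, and the gene passed the edgeR test in RNA1 (FDR 0.0189) and missed it in RNA2 (FDR 0.33). Leaving out RNA1 replicate 1, or replicate 2, ended the call in RNA1. Without control replicate 3, the library with 37 reads, or without control replicate 1, the gene had too few reads to be tested.

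At the other end, CHKov1 begins 398 bp after CG10562. It is known for a transposon insertion that alters its protein and has been linked to resistance of flies to the sigma virus. CHKov1 had 29.4, 29.2 and 26.1 CPM in RNA1 and 27.1 and 30.4 CPM in RNA2, against 33.4, 33.2 and 34.3 CPM in control. All knockdown libraries were below the controls, by a small margin that missed the edgeR threshold (log2 fold change -0.25 ± 0.08, FDR 0.0776, in RNA1, and -0.23 ± 0.09, FDR 0.214, in RNA2). CG11892 and CHKov1 are named for their position, with their values known.

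The other genes of the array and of the family are those the choice of the 8 left out, so the 2 sets are not compared with a test. RefSeq gives subfamily names to 51 genes, of which 43 are not among the 8, and 32 of these had enough reads to be tested. In RNA1, 3 of 32 passed the edgeR test, 1 higher and 2 lower, where 10.3% of all genes passed, 5.01% higher and 5.25% lower. The higher gene was CG31288 (Dro11-0), inside the array, with a log2 fold change of 0.71 ± 0.19 (FDR 0.0445). The lower ones were CG31104 and CG33301 (Dro26-2), a copy on 2L, with -1.62 ± 0.33 (FDR 0.0156). In RNA2, 2 of 32 passed, both lower and both outside the array, where 3.78% of all genes passed, 1.76% higher and 2.02% lower.

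CG33301 had 0.29, 0.44 and 0.52 CPM in RNA1 and 0.33 and 0.27 CPM in RNA2, against 1.02, 1.51 and 1.34 CPM in control, and in RNA2 its log2 fold change was -2.09 ± 0.40 (FDR 0.0208). It was low in every knockdown library, at a level of few reads. CG6908 (Dro23-0), elsewhere on 3R, had 47.5, 39.6 and 45.2 CPM in RNA1 and 31.2 and 42.8 CPM in RNA2, against 50.4, 65.2 and 65.4 CPM in control. It fell in RNA2 by 0.71 ± 0.16 on the log2 scale (FDR 0.0481), and its value of -0.45 ± 0.14 in RNA1 missed the threshold (FDR 0.0762).

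At an unadjusted edgeR p under 0.05, 13 of the 32 relatives passed in RNA1, where 26.7% of all genes did. In RNA2 12 of 32 passed, where 18.4% of all genes did. Leaving out control replicate 3 brought the calls by FDR in RNA1 to 0, while RNA1 replicate 1 or 2 left out gave 1. In RNA2 the calls came to 0 without control replicate 2, control replicate 3 or RNA2 replicate 1, and 1 without RNA1 replicate 2, RNA1 replicate 3 or RNA2 replicate 2. RNA2 against RNA1 gave 0 of 32 by edgeR, DESeq2 and limma-voom, with 5 at an unadjusted p under 0.05, as had 7.66% of all genes. The median log2 fold change of the 32 was -0.05 in RNA1 and -0.11 in RNA2. Of the 32, 7 were lower in all 5 knockdown libraries than in every control, and 3 were higher. Of all genes 10.7% were lower and 10.7% higher in this way. Among the 7 was CG11893 of the array, which was not called and had 43 reads over the controls. Its log2 fold change was -1.19 ± 0.46 in RNA1 and -2.05 ± 0.59 in RNA2.

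**Figure D3:**
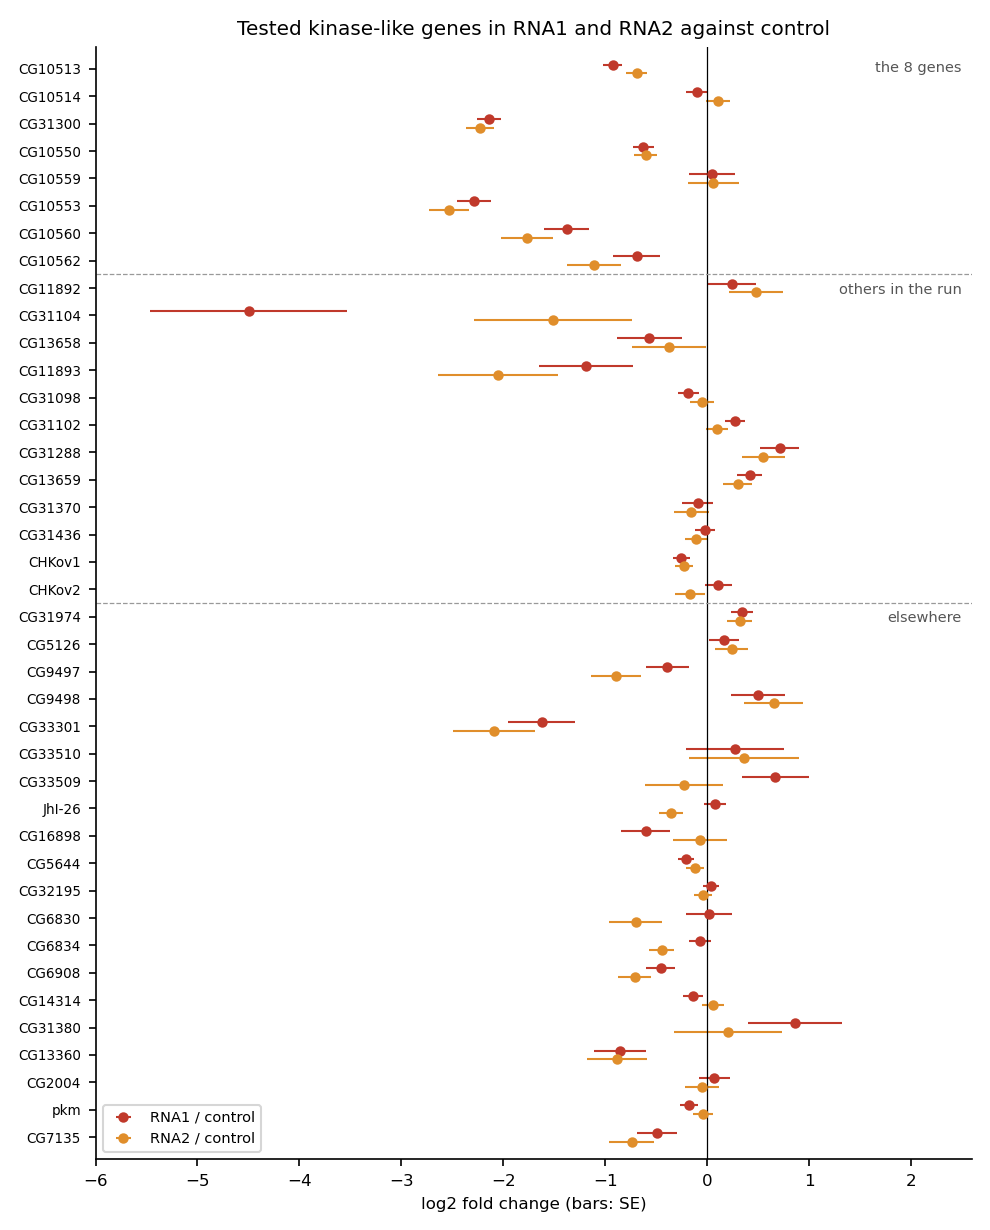
Log2 fold change (point) and SE (bar) over control of every tested gene of the family, a row per gene, with RNA1 above RNA2 in each row and the genes split into the 8, the others of the array (called the run in the picture) and those elsewhere. CG31300 lies at -2.14 and -2.22 and CG10553 at -2.29 and -2.53, while most of the 32 relatives lie close to 0 and CG31104 and CG33301 have wide bars at few reads.

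Outside the family, 25 annotated genes lay within 50 kb of the 8 and 21 were tested. Of these, to (takeout), which codes for a secreted carrier-like protein tied to feeding, the clock and male courtship, passed the edgeR test. It had 18.6, 23.1 and 18.3 CPM in RNA1 and 23.6 and 24.99 CPM in RNA2, against 45.0, 50.7 and 47.8 CPM in control, and its groups did not overlap. It fell by 1.26 ± 0.10 in RNA1 (FDR 0.000206) and by 0.98 ± 0.12 in RNA2 (FDR 0.00261) on the log2 scale, and its call held without each library in turn.

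Jhbp7, beside it and of the same protein family, and tobi, a glucosidase gene named as a target of brain insulin, had large but scattered values and are named here after their values were seen. Jhbp7 had a log2 fold change of -1.33 ± 0.39 in RNA1 (FDR 0.0836) and -1.89 ± 0.47 in RNA2 (FDR 0.0902). For tobi it was 2.06 ± 0.55 in RNA1 (FDR 0.0738) and 2.05 ± 0.59 in RNA2 (FDR 0.145). Counting relatives and others together, 3 of 33 tested neighbours passed in RNA1 and 1 in RNA2, where 10.3% and 3.78% of all genes passed. In RNA1 the count was 1 without control replicate 1, control replicate 3 or RNA1 replicate 1. On the whole of 3R, 5.48% of genes were lower in RNA1 and 2.46% in RNA2, beside 5.25% and 2.02% of all genes.

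To compare the 8 genes with each other, CPM was divided by the annotated exon length in kb. In control, CG10550 stood highest with 108.6 ± 6.44 CPM per kb. CG10560 with 36.7 ± 5.75, CG10513 with 32.9 ± 2.67, CG10553 with 28.3 ± 2.5 and CG10562 with 23.5 ± 5.61 CPM per kb followed, and neighbours in that order overlapped or touched. CG31300 with 16.3 ± 1.33, CG10514 with 9.81 ± 0.73 and CG10559 with 1.98 ± 0.36 CPM per kb lay below them, each apart from the next.

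In both knockdowns the order was CG10550, CG10513, CG10562, CG10560, CG10514, CG10553, CG31300 and CG10559. RNA1 held 70.5 ± 6.10 CPM per kb of CG10550, 5.81 ± 0.35 of CG10553 and 3.69 ± 0.35 of CG31300. RNA2 held 71.6 ± 11.1 CPM per kb of CG10550, 4.89 ± 1.70 of CG10553 and 3.49 ± 0.42 of CG31300. CG10514 was thus above CG10553 and CG31300 in the knockdowns and below them in control. In RNA1 the ranges of CG10513, CG10562 and CG10560 overlapped. In RNA2 those of CG10562, CG10560 and CG10514 did, and so did those of CG10553 and CG31300.

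Within the 51 genes, CG10550 ranked 2 by level per kb in every group. Above it was pkm, with 506 ± 38.2 CPM per kb in RNA1 and 557 ± 30.5 in RNA2, against 572 ± 41.3 in control. CG10553 ranked 26 in RNA1 and 26 in RNA2, against 9 in control. CG31300 ranked 30 in RNA1 and 29 in RNA2, against 16 in control, and CG10560 ranked 17 in both knockdowns, against 4 in control. Dividing by coding length gave the same order among the 8 genes in each group.

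**Figure D4:**
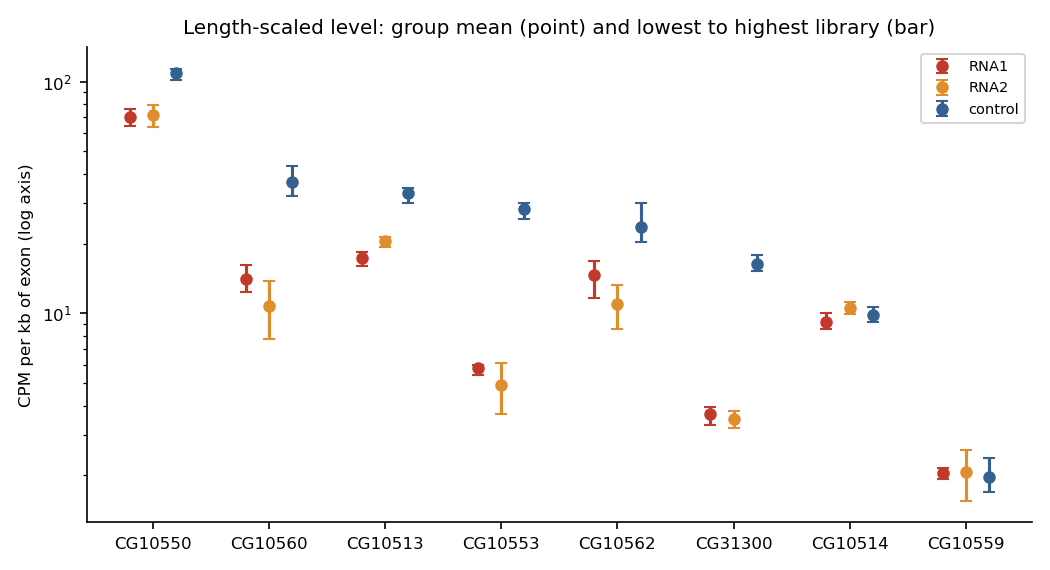
CPM per kb of exon on a log axis for the 8 genes, as group mean (point) and lowest to highest library (bar), for RNA1, RNA2 and control. CG10550 is highest and CG10559 lowest in every group, and CG10553 and CG31300 pass below CG10514 in the knockdowns.

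Within groups the genes also differed in how much they varied. The pooled SD of log2 CPM within groups was 0.332 for CG10562, 0.322 for CG10560, 0.279 for CG10559 and 0.248 for CG10553, which form the last stretch of the array. It was 0.139 for CG10550, 0.137 for CG31300, 0.116 for CG10514 and 0.11 for CG10513. Within that stretch, deviations from the group mean correlated over 8 libraries at r = 0.479 (CG10559 with CG10562) to 0.93 (CG10553 with CG10560). Genes outside it reached like values, with r = 0.883 between CG10550 and CG10562 and 0.779 between CG31300 and CG10559. CG10513 and CG10514 had r = 0.707 with each other and -0.245 and -0.26 with CG10553.

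The RNA2 libraries carry much of this. Replicate 1 (KD2) was lower than replicate 2 (KD3) for 6 genes and higher for CG10513 and CG10514, and CG10560 deviated by -0.42 and 0.42 from the group mean. These 2 libraries have different genotype entries, so a difference between genotypes and the spread of replicates cannot be told apart in RNA2. All points share the libraries and their depth, the 2 RNA2 deviations mirror each other by construction, and so these correlations are a description of 8 libraries.

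**Figure D5:**
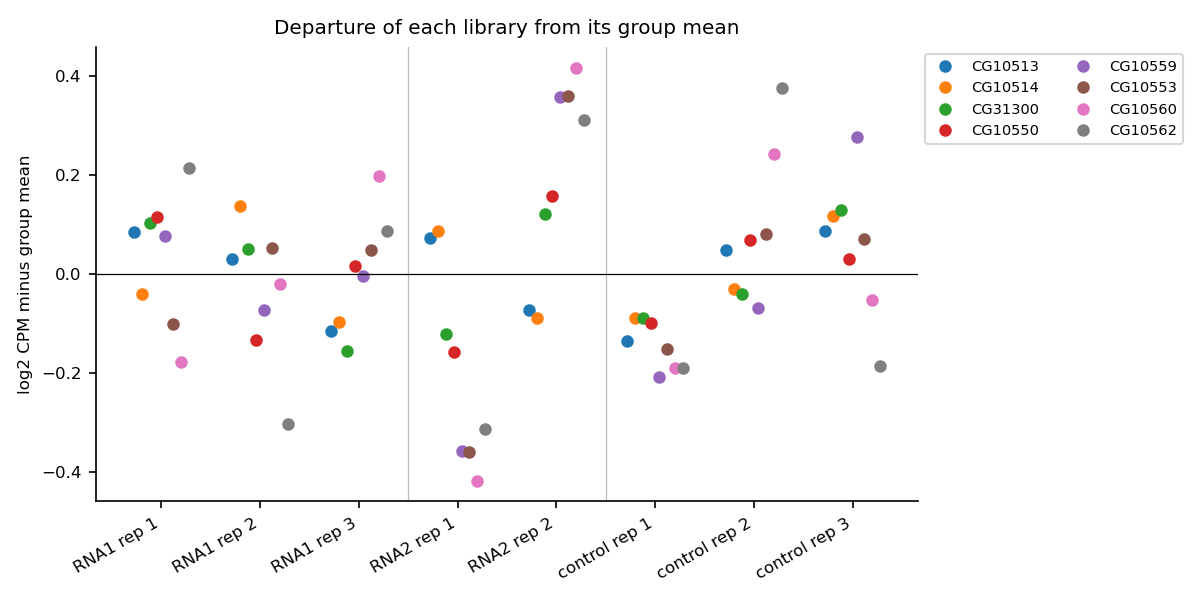
Log2 CPM minus the group mean for each of the 8 genes (coloured points) in each library, with vertical lines between RNA1, RNA2 and control. In RNA2 the genes of the last stretch reach -0.42 in replicate 1 and 0.42 in replicate 2, and CG10513 and CG10514 lie on the other side of 0.

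Over the 8 libraries, the genes whose log2 CPM was most like that of CG31300 were CG14933 (r = 0.989), CG10553 (0.988), Jhbp1 (0.982), CG6356 (0.981) and CG34327 (0.979). Those most like CG10553 were CG31300, Sdr (0.987), Or45b (0.987), Sox102F (0.985) and CG3270 (0.985). The other members followed CG31300 less closely, with r = 0.951 for CG10550 and CG10513, 0.934 for CG10560 and 0.814 for CG10562, while CG10559 and CG10514 had r near 0. Any gene that differs cleanly between the knockdowns and control scores high on this measure, and within groups CG31300 and CG10553 had r = 0.535.

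At the other extreme of CG31300 were CG18473 (r = -0.995), w (-0.991) and Drs (-0.987), and of CG10553 nes (-0.989), Su(var)2-10 (-0.988) and Cad89D (-0.986). The gene w codes for an eye pigment transporter and is the marker carried by many fly transgenes. It had 228, 262 and 245 CPM in RNA1 and 256 and 216 CPM in RNA2, against 59.3, 63.3 and 66.5 CPM in control, so the knockdown flies differed from control at this marker as well. The part of transgene number or strain background in the values of the 8 genes was not tested and cannot be told apart from the knockdown. Drs, the antifungal peptide drosomycin, had 225, 276 and 190 CPM in RNA1 and 262 and 255 CPM in RNA2, against 17.6, 22.6 and 19.4 CPM in control.

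Other genes of the pathways in which the family is discussed were taken from lists. These lists were chosen with earlier results of these data known, so nothing is read from their shares. Up to 4 called genes of each list are named, those with the lowest p. Of 22 tested ecdysone genes, 4 fell in RNA1 and 2 in RNA2, beside 5.25% and 2.02% lower among all genes. The carrier Oatp74D, also known as the ecdysone importer, fell by 0.53 ± 0.10 in RNA1 (FDR 0.0128) and by 0.52 ± 0.12 in RNA2 (FDR 0.0381). MsrA, an ecdysone-induced gene, fell by 0.61 ± 0.11 in RNA1 (FDR 0.0108) and by 0.61 ± 0.13 in RNA2 (FDR 0.0313) on the log2 scale. The hydroxylases phtm and shd, which act in ecdysteroid synthesis, fell in RNA1 (FDR 0.0189 and 0.0396) and missed the threshold in RNA2 (FDR 0.0716 and 0.0986). They were rare, with 0.47 ± 0.12 CPM of phtm in RNA1 against 1.43 ± 0.34 CPM in control.

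Of 11 tested juvenile hormone genes, 1 rose and 3 fell in RNA1, beside 5.01% higher and 5.25% lower among all genes, and 1 rose in RNA2, beside 1.76% higher. Kr-h1, the transcription factor that responds to the hormone, had 37.8 ± 2.69 CPM in RNA1 and 36.3 ± 2.44 CPM in RNA2, against 22.6 ± 1.54 CPM in control, and rose in both (FDR 0.00132 and 0.00553). The 3 that fell in RNA1 were the epoxide hydrolase gene Jheh3 (FDR 0.0218), the methyltransferase gene jhamt (FDR 0.0406) and the amino acid transporter gene JhI-21 (FDR 0.0463). In RNA2 their FDR was 0.962, 0.0758 and 0.191.

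Of 33 tested genes of the xenobiotic response, 1 rose and 12 fell in RNA1, beside 5.01% higher and 5.25% lower among all genes. In RNA2 6 fell, beside 2.02% lower among all genes. The cytochrome P450 gene Cyp6a2 had 14.2 ± 2.23 CPM in RNA1 and 18.1 ± 2.83 CPM in RNA2, against 44.4 ± 5.99 CPM in control (FDR 0.00032 and 0.00369). The glutathione transferase gene GstD2 had 1.86 ± 0.32 CPM in RNA1 and 1.53 ± 0.08 CPM in RNA2, against 5.34 ± 0.62 CPM in control (FDR 0.00153 and 0.00272). Another P450 gene, Cyp6d5, fell by 0.70 ± 0.11 in RNA1 and by 0.95 ± 0.13 in RNA2 on the log2 scale (FDR 0.00646 and 0.005). Ugt35C1, a glycosyltransferase gene, fell in RNA1 (log2 fold change -0.96 ± 0.12, FDR 0.00162) and had -0.18 ± 0.13 in RNA2 (FDR 0.508). The median log2 fold change of the 33 was -0.31 in RNA1 and -0.35 in RNA2.

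Some marker genes of neurons and of other tissues differed between the groups, and their part in the values of the 8 genes was not tested. The sums over 8 neuronal genes, given above, overlapped between the groups. Of these genes 1 fell in each knockdown, beside 5.25% and 2.02% lower among all genes. It was ChAT, which makes acetylcholine (FDR 0.00562 in RNA1 and 0.025 in RNA2). Over 6 muscle genes the sums were 7553 to 8604 CPM in RNA1 and 8011 and 8849 CPM in RNA2. Control held 8424 to 10030 CPM. Of the 6, 1 rose in each knockdown, beside 5.01% and 1.76% higher among all genes. It was Act88F, a flight muscle actin (FDR 0.00817 and 0.0305), and it went against its list. The log2 fold change was negative for 4 of the 6 in RNA1 and for 5 in RNA2. Summed over 10 fat body genes, the libraries held 2614 to 4018 CPM in RNA1 and 2980 and 4201 CPM in RNA2, against 2482 to 2996 CPM in control, and the groups overlapped. Of these 10 genes 1 rose and 1 fell in RNA1, beside 5.01% higher and 5.25% lower among all genes. In RNA2 0 rose and 1 fell, beside 1.76% and 2.02%. The lipase gene bmm rose in RNA1 (FDR 0.00888, and 0.127 in RNA2), and to, which is on this list too, fell in both. Lsp2 and Fbp1 were not called but lay above every control in all knockdown libraries. Lsp2 had means of 231.4 CPM in RNA1 and 466.8 CPM in RNA2, against 45.4 CPM in control. For Fbp1 these were 22.4, 25.6 and 7.04 CPM. The log2 fold change was negative for 4 of the 10 in each knockdown. Over 6 hemocyte genes the sums were 277.7 to 392.4 CPM in RNA1 and 329.9 and 390.4 CPM in RNA2, against 260 to 278.5 CPM in control. Here 4 of 6 rose in RNA1 and 2 of 6 in RNA2, where 5.01% and 1.76% of all genes did, against 5.25% and 2.02% that fell. Over 8 gut and digestive genes the sums were 62.5 to 191.5 CPM in RNA1 and 89.2 and 182.5 CPM in RNA2. Control held 24.95 to 37.62 CPM. Of 7 tested genes 2 rose in RNA1 and 1 in RNA2, beside 5.01% and 1.76% higher among all genes. The genes called were Amy-p and Amy-d, which were above every control in all knockdown libraries. Amy-p had means of 38.5 CPM in RNA1 and 67.6 CPM in RNA2, against 8.9 CPM in control (FDR 0.0364 and 0.0296). Amy-d had 55.1 and 58.6 CPM, against 13.8 CPM (FDR 0.0377 and 0.0722). The defining protease genes Jon65Aiv and betaTry were at or near 0 in the controls and reached 64.2 and 13.0 CPM in RNA1 replicate 3 alone.

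Over 5 Malpighian tubule genes the sums were 471.7 to 522.1 CPM in RNA1 and 502.7 and 565.5 CPM in RNA2. Control held 544.5 to 585.8 CPM. Nearly all of this was CAP and NKCC, with means of 394.9 and 157.9 CPM in control. Uro and salt were at or near 0 in every library, so the sums do not measure tubule tissue. Of 3 tested genes 1 fell in each knockdown, beside 5.25% and 2.02% lower among all genes. Over 8 germline and eggshell genes the sums were 0.88 to 1.47 CPM in RNA1 and 0.50 and 1.77 CPM in RNA2, against 6.20 to 9.82 CPM in control, mostly from the eggshell gene Cp38, while bam and Cp15 were at 0 in all controls. Over 7 glial genes the sums were 2516 to 2787 CPM in RNA1 and 2294 and 2593 CPM in RNA2. Control held 2724 to 2904 CPM. In RNA1 1 of 7 fell and in RNA2 2 of 7, beside 5.25% and 2.02% lower among all genes. Without RNA1 replicate 3, the library with most gut reads, the log2 fold change in RNA1 was -2.07 for CG31300 and -2.31 for CG10553. All knockdown libraries had higher gut sums than every control, with 182.5 CPM in RNA2 replicate 1. The part of gut reads in the values of these genes was not tested.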

How the data were processed

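The deposited values are whole-number counts of reads, with a row per gene and a column per library, which the authors had not normalized. Per the labels' protocols, RNA was purified with Trizol and a kit for lipid tissue, and libraries were stranded and mRNA-based. The submitters' processing notes name bcl2fastq 2.17, cutadapt 1.18, FastQC 0.11.8, STAR 2.6.1, SAMtools 1.8, DESeq2 1.24.0 and build BDGP6. For the read counter, its strand setting and the gene models no name is given in the sources used here. Ensembl's BDGP6 gene models, possibly of another release, supplied coordinates and lengths, and RefSeq supplied subfamily names. Of 17676 genes, 17549 matched a symbol.

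The test was edgeR 4.0.16 in R 4.3.3. Its filterByExpr (minimum count 10, minimum total 15) left 11081 genes, and TMM scaled the libraries. All 8 libraries entered a robust quasi-likelihood fit with group as the sole term, and the code was tested on simulated data. FDR means Benjamini-Hochberg adjustment over the 11081 genes, and rose and fell mean a two-sided FDR under 0.05. CPM was computed from the deposited counts with TMM scaling. Each SE was derived from the F statistic and the log2 fold change, and can be too small at few reads. Where a group had few reads, a ratio of pooled counts has an exact 95% Clopper-Pearson interval, which covers counting error only. The biological coefficient of variation was 0.143. Libraries of a group differed by far more than sampling noise and each counts as 1 replicate.

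The 8 genes and all lists were chosen with earlier results of these data known. Named are the 8 genes, every relative and neighbour within 50 kb called in either knockdown, the 5 genes most and 3 least like CG31300 and like CG10553 by Pearson r of log2 CPM, and up to 4 called genes of each other list. Others are named for their position or role, with their values known. DESeq2 1.42.0, limma-voom (limma 3.58.1), other scalings and filters, a replicate term, windows of 20 and 100 kb and leaving out each library were tried as alternatives.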

Additional observations from a re-analysis of the deposited data

How the results depend on the processing

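Over 16 alternatives, CG31300 had a log2 fold change of -2.20 to -2.07 in RNA1 and -2.36 to -2.11 in RNA2, and CG10553 -2.36 to -2.24 in RNA1 and -2.94 to -2.21 in RNA2. The number of the 8 genes called ran from 5 to 6 in RNA1 and from 4 to 6 in RNA2 (these counts were added after the data were seen). CG10562 was called by DESeq2 in RNA1, and in RNA2 by DESeq2, by limma-voom and by edgeR without RNA2 replicate 2. With each library left out in turn, the median of the 8 genes ran from -0.89 to -0.75 in RNA1, from -1.12 to -0.78 in RNA2, and from -0.3072 to 0.0929 in RNA2 against RNA1. Without RNA2 replicate 1 the difference of CG10553 between RNA2 and RNA1 turned to 0.0715, and those of CG10550 and CG10559 came to 0.174 and 0.3336, with CG10559 at 0.3786 against control. Without RNA2 replicate 2, CG10559 turned to -0.35 in RNA2 against control and to -0.40 in RNA2 against RNA1, CG10550 to -0.15 in RNA2 against RNA1, and CG10553 came to -0.6603 there. Where this leaves RNA2 with 1 library, that library is assumed to vary like the other groups.

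DESeq2 called 6 relatives and 6 neighbours in RNA1, 7 relatives, 3 neighbours and 910 of all genes in RNA2, and 147 of all genes in RNA2 against RNA1, where edgeR called 3, 3, 2, 1, 419 and 31. Library totals in place of TMM, and a fit of only the groups compared, each called 1 relative in RNA2. A window of 20 kb gave 0 neighbours in RNA2 by edgeR, and a window of 100 kb gave 5 in RNA1 and 2 in RNA2. With each library left out in turn, calls ran from 0 to 4 relatives, 1 to 3 neighbours and 476 to 1189 of all genes in RNA1. They ran from 0 to 3 relatives and 115 to 561 of all genes in RNA2, and from 17 to 40 of all genes in RNA2 against RNA1. The cause of these shifts was not tested.

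Deviations of same-numbered control and RNA1 libraries correlated at -0.038, -0.082 and -0.028 across genes. For control and RNA2 the values were 0.037 and 0.164, and for RNA1 and RNA2 -0.231 and -0.164. With so few libraries these values cannot tell whether the numbers pair the samples. With replicate number as a block, edgeR called 0 relatives and 214 of all genes in RNA2, and 17 of all genes in RNA2 against RNA1, and CG10550 was no longer called in RNA2. Relatives found by protein search and protein-table coding lengths were not run, since no protein sequences were used here. Few reads limit CG31104, CG11893, CG33301 and phtm.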
